A study of Mus musculus with 6 samples.

Results

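The genes described here are the oxidases of the intestinal epithelium and the factors that bring them to the membrane, 9 of 55298 annotated genes: *Duox1*, *Duox2*, *Duoxa1*, *Duoxa2*, *Nox1*, *Nox4*, *Noxo1*, *Cyba* and *Nos2*. They were listed by symbol and found through their Ensembl identifiers, and 7 of the 9 had enough reads to be tested. RNA-seq read counts were compared in epithelial cells of the mouse small intestine, all from animals with collagen-induced arthritis. The comparison was of 3 libraries with the strain label HIF2α +/- ΔIEC, given as an intestine-specific knockout of HIF2α, with 3 libraries of littermate controls with the strain label HIF2α +/- F/F, called WT in the column names. What the sign +/- stands for, the promoter of the Cre driver, and the age of the mice are not given in the sources used here. No label states that replicate libraries stem from different mice, so p-values measure only the spread between these libraries, which may be technical.

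Dual oxidases sit in the apical membrane of epithelial cells and release hydrogen peroxide into the lumen, and they reach the surface only together with a maturation factor, DUOXA2 for DUOX2 and DUOXA1 for DUOX1. NOX1, best known from the colon, makes superoxide with the membrane partner p22phox (*Cyba*), the organizer NOXO1 and the activator NOXA1, while NOX4 needs only p22phox. The inducible nitric oxide synthase NOS2 makes nitric oxide from arginine, and both *Duox2* and *Nos2* are known as genes that microbial and cytokine signals induce in the gut epithelium.

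The libraries held 28937122 to 32542170 reads in the group labelled knockout and 35686871 to 38454620 in the controls. *Epas1*, which encodes HIF2α, stood at 44.2, 25.9 and 31.9 CPM (reads of a gene relative to the TMM-scaled size of its library) in the libraries labelled knockout, against 12.2, 19.4 and 17.5 CPM in the controls. It was thus higher under the knockout label (log2 fold change 1.06, SE 0.28, adjusted p = 0.0061 by edgeR's quasi-likelihood test with Benjamini-Hochberg adjustment), which goes against the label, and a deleted exon cannot be seen in gene totals, so these samples are called the libraries labelled knockout throughout. The libraries also differed in base composition. Relative to the mean of the 6 libraries, log2 abundance fell by 0.64 to 0.89 for each 10% of transcript GC content in the libraries labelled knockout. It rose by 0.44 to 0.96 in the controls. These slopes are relative and show only how the libraries differ from each other. The 7 tested members are therefore given without and with a correction for GC content and transcript length. Without it 66.9% of all tested genes passed an adjusted p of 0.05 (37.2% were higher, or 5636 genes, and 29.7% lower, or 4499 genes), and with it 29.9% did (14.3% higher and 15.6% lower). Scaling by total counts in place of TMM split the uncorrected calls into 6550 higher and 2660 lower. The correction also removes any true difference that follows GC content or length.

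The *Duox* genes lie together on chromosome 2 (GRCm38, GENCODE M21) as a pair of head-to-head couples, each an oxidase beside its own maturation factor. *Duox2* (122279247 to 122298449, reverse strand) and *Duoxa2* (122298900 to 122302885, forward strand) start 450 bases apart. *Duoxa1* (122302191 to 122313730, reverse strand) and *Duox1* (122315672 to 122347972, forward strand) start 1941 bases apart. The 3' ends of *Duoxa2* and *Duoxa1* overlap on opposite strands by 695 bases, 682 of them exonic in both. The whole cluster spans 68726 bases. The promoter windows of *Duox2* and *Duoxa2* are shown because these genes face each other over a short gap and were the members with the largest drop. That of *Nox1* is shown because it was the member that was higher. The windows come from RefSeq on GRCm38.p6, run 5′ to 3′ on the gene's own strand, and hold 250 bases before and 50 after the RefSeq start. For *Duox2* and *Nox1* this start lies inside the GENCODE gene. The *Duox2* window lies mostly inside that gene and not in the gap. The *Nox1* window lies wholly inside its gene, far from the GENCODE start at 134221956. Capitals mark matches to the core of the hypoxia response element.
Duox2, chr2:122298178-122298477, reverse strand: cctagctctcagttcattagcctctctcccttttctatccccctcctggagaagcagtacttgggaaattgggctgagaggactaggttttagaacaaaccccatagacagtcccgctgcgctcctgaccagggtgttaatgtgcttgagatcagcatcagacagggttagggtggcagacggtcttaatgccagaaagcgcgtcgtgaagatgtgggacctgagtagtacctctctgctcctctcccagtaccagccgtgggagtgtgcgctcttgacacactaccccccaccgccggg
Duoxa2, chr2:122298650-122298949, forward strand: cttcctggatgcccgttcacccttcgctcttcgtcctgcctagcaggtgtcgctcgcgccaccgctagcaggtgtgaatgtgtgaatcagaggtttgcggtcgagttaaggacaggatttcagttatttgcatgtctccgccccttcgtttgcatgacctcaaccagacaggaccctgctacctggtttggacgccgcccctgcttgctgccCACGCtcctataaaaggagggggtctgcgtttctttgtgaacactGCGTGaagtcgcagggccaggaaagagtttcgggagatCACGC
Nox1, chrX:134111805-134112104, reverse strand: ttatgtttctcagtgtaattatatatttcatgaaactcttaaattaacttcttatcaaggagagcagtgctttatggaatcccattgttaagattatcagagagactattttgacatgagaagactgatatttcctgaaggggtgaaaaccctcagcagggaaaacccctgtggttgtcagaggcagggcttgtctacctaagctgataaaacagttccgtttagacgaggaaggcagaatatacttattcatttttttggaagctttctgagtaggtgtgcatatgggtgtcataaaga
The searched letters were ACGTG and GCGTG for the hypoxia response element core, TTCNNNGAA for STAT sites, GGGA and TTCC with any 2 bases between them for NF-κB sites, and CCAAT for the CCAAT box, each on both strands. Of 32851 RefSeq promoter windows of the same length, 19.6%, 32.4%, 8.3%, 1.5% and 37.4% held them, in that order. The *Duoxa2* window held GCGTG at 3 places, at positions -38, 8 and 46 from the start, and none of the other motifs. The *Duox2* window held a CCAAT match on its reverse strand at -183 and no other motif, and the *Nox1* window held none of the letters searched. Of the other members' windows, that of *Noxo1* held GCGTG at 4 places, those of *Duoxa1*, *Duox1* and *Nox4* at 1 place each, *Duox1* also held ACGTG and *Nox4* a STAT match, and that of *Cyba* held none; *Nos2* had no entry. The *Nox1* window is poor in GC (38.0%) beside those of *Duox2* (55.3%) and *Duoxa2* (56.7%).

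*Duox2* and *Duoxa2*, the oxidase and its partner, were lower in all 3 libraries labelled knockout than in any control, at log2 fold changes of -2.27 and -3.49, and passed the test with and without the correction. *Nox1* was higher in both fits, at a low level. *Cyba* and *Noxo1* passed, as lower, before the correction and not after it, *Nos2* and *Duox1* passed in no direction, and *Duoxa1* and *Nox4* had almost no reads or none. In all, 5 of the 7 tested genes were called before the correction (1 higher, 4 lower) and 3 after it (1 higher, 2 lower). Of all tested genes, 66.9% were called before the correction and 29.9% after it. The groups did not overlap for 5 of the 7 before it and for 3 after it, where 72.6% and 47.9% of all tested genes did not overlap.

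**Figure D1:**
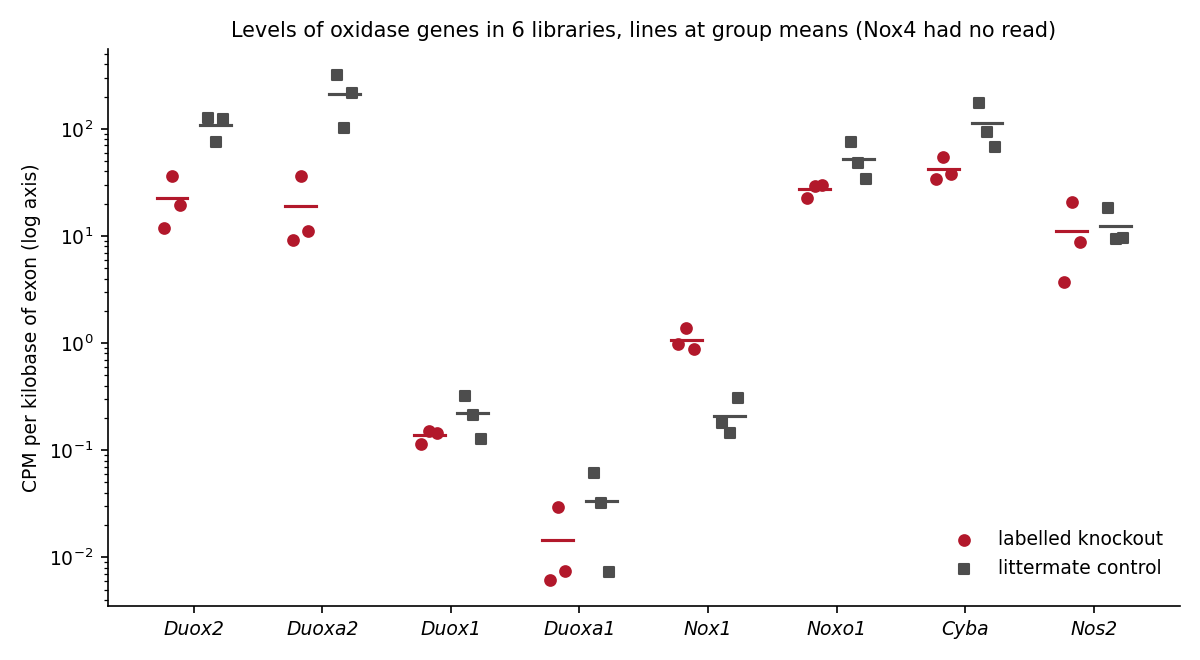
Level of each gene in each library, in TMM-scaled CPM per kilobase of merged exon on a log axis; circles are the 3 libraries labelled knockout, squares the 3 controls, and lines the arithmetic group means. The circles of Duox2 and Duoxa2 lie below every square, those of Nox1 above every square, and those of Nos2 span a wider range than the squares.

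*Duox2* had the highest level per kilobase of the catalytic oxidase subunits in every library. It stood at 81.0, 245 and 131 CPM in the libraries labelled knockout, against 863, 512 and 833 CPM in the controls, and the groups did not overlap. The means were 152 ± 83.9 CPM and 736 ± 195 CPM (SD, n = 3 each). By edgeR's quasi-likelihood test with Benjamini-Hochberg adjustment its log2 fold change of -2.27 (SE 0.40) had an adjusted p of 0.00084, and the exact permutation test of the 6 log2 values gave p = 0.10, the smallest that 3 against 3 allow. The *Duox2* transcripts have 54.2% GC, near the 51% median of all tested genes, and the correction moved the change little: corrected levels were 87.3, 266 and 136 CPM in the libraries labelled knockout and 792, 459 and 827 CPM in the controls, a log2 fold change of -2.08 (SE 0.42, adjusted p = 0.0095 by the same test). *Duox2* passed in 6 of 6 fits that left out a library, with or without the correction, at -2.79 to -1.96 uncorrected and -2.64 to -1.78 corrected. The control group itself spanned 512 to 863 CPM, and the libraries labelled knockout spanned 81.0 to 245 CPM.

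*Duoxa2*, which carries DUOX2 out of the endoplasmic reticulum, had the larger fitted drop. Its libraries labelled knockout held 14.7, 58.1 and 17.8 CPM, against 511, 161 and 342 CPM in the controls, again without overlap. Means were 30.2 ± 24.3 CPM and 338 ± 175 CPM (SD, n = 3 each). By the same edgeR test the log2 fold change of *Duoxa2* was -3.49 (SE 0.66) at an adjusted p of 0.0023, and after the correction it was -2.99 (SE 0.64) at an adjusted p of 0.0127. The corrected levels were 17.6, 69.5 and 21.2 CPM in the libraries labelled knockout and 420, 126 and 311 CPM in the controls. Knockout-labelled library 2 was the highest of its group for *Duox2* and for *Duoxa2*, and control library 2 the lowest of its group for both. The corrected call, by edgeR's test, was lost without knockout-labelled library 1 (log2 fold change -2.65, adjusted p = 0.0575), without control library 3 (-2.94, adjusted p = 0.0546) and with no filter on low counts (-3.14, adjusted p = 0.078). Leaving out knockout-labelled library 2 gave the largest changes, -4.38 before and -3.89 after the correction. How reads in the 682 exon bases shared by *Duoxa2* and *Duoxa1* were assigned is not stated.

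The balance between oxidase and maturation factor also differed between the groups without overlap, though an exact permutation test of 3 against 3 libraries cannot pass the threshold. Per kilobase of exon, *Duox2* over *Duoxa2* was 1.30, 0.990 and 1.73 in the libraries labelled knockout, against 0.397, 0.748 and 0.572 in the controls. All 3 ratios under the knockout label lay above all 3 in the controls, with means of 1.34 ± 0.372 and 0.572 ± 0.175 (SD, n = 3 each) and a difference of 1.24 on the log2 scale (exact permutation test, p = 0.10, the smallest possible). With corrected levels the ratios were 1.17, 0.901 and 1.51 under the knockout label and 0.443, 0.857 and 0.625 in the controls, a log2 difference of 0.92 with the same exact p of 0.10. The transcript of the maturation factor was therefore above that of its oxidase in each control library, and below it in 2 of the 3 libraries labelled knockout; with lengths of the longest transcripts, it was below it in all 3, at ratios of 1.10 to 1.92.

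**Figure D2:**
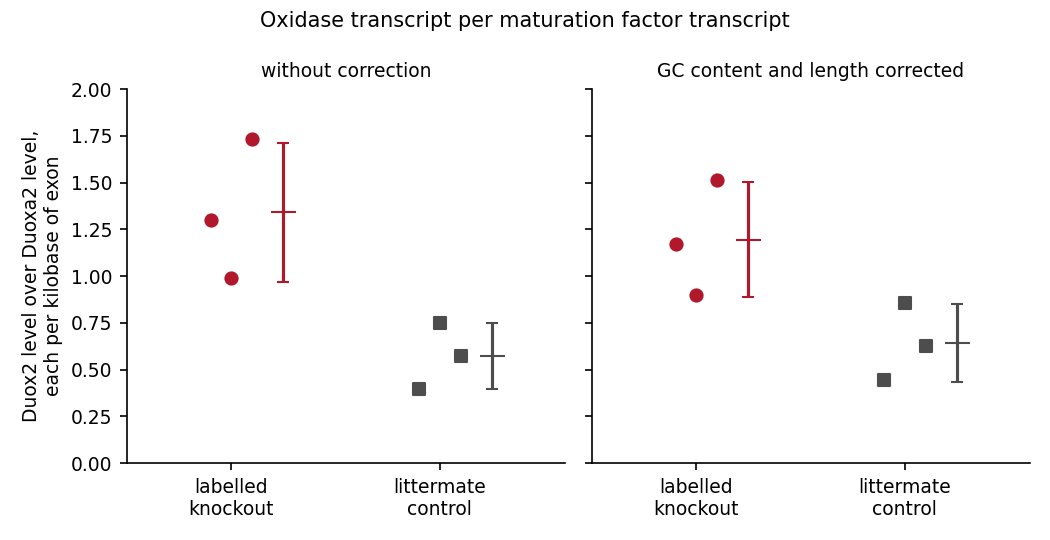
Ratio of Duox2 to Duoxa2 in each library from levels per kilobase of exon; circles are the libraries labelled knockout, squares the controls. The ratios run from 0.990 to 1.73 under the knockout label and from 0.397 to 0.748 in the controls, without overlap.

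The other couple of the cluster was close to silent. *Duox1* had 25, 27 and 26 reads in the libraries labelled knockout and 49, 35 and 23 reads in the controls, which is 0.606, 0.798 and 0.771 CPM against 1.70, 1.13 and 0.669 CPM. The groups overlapped, and the log2 fold change of -0.68 (SE 0.43, adjusted p = 0.177) did not pass edgeR's test, nor did the corrected -0.24 (SE 0.38, adjusted p = 0.663). These low counts leave its change imprecise. *Duoxa1*, the maturation factor of DUOX1, had 1, 4 and 1 reads in the libraries labelled knockout and 7, 4 and 1 reads in the controls, too few to test. *Duox2* thus had 134, 307 and 170 reads for each *Duox1* read in the libraries labelled knockout, against 509, 454 and 1245 in the controls.

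The nearest gene on either side of the cluster was lower too. *Sord*, the sorbitol dehydrogenase gene on the *Duox2* side, had a log2 fold change of -0.83 (SE 0.26, adjusted p = 0.0149, edgeR quasi-likelihood test) and of -1.45 after the correction (adjusted p = 0.0027). Its uncorrected call was lost without knockout-labelled library 1 (-0.77, adjusted p = 0.0503), without knockout-labelled library 2 (-0.72, adjusted p = 0.0693) and under total count scaling (-0.37, adjusted p = 0.261). *Shf*, an adaptor protein gene on the *Duox1* side, had -1.85 (SE 0.28, adjusted p = 0.00032) and -0.71 after the correction (adjusted p = 0.026). Farther out, the nucleoside carrier gene *Slc28a2* overlapped between the groups and did not pass, at 0.52 (adjusted p = 0.218) without and -0.73 (adjusted p = 0.0593) with the correction, and *Terb2* was not tested. Whether *Duox2* differed from its neighbours in its change was not tested.

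**Figure D3:**
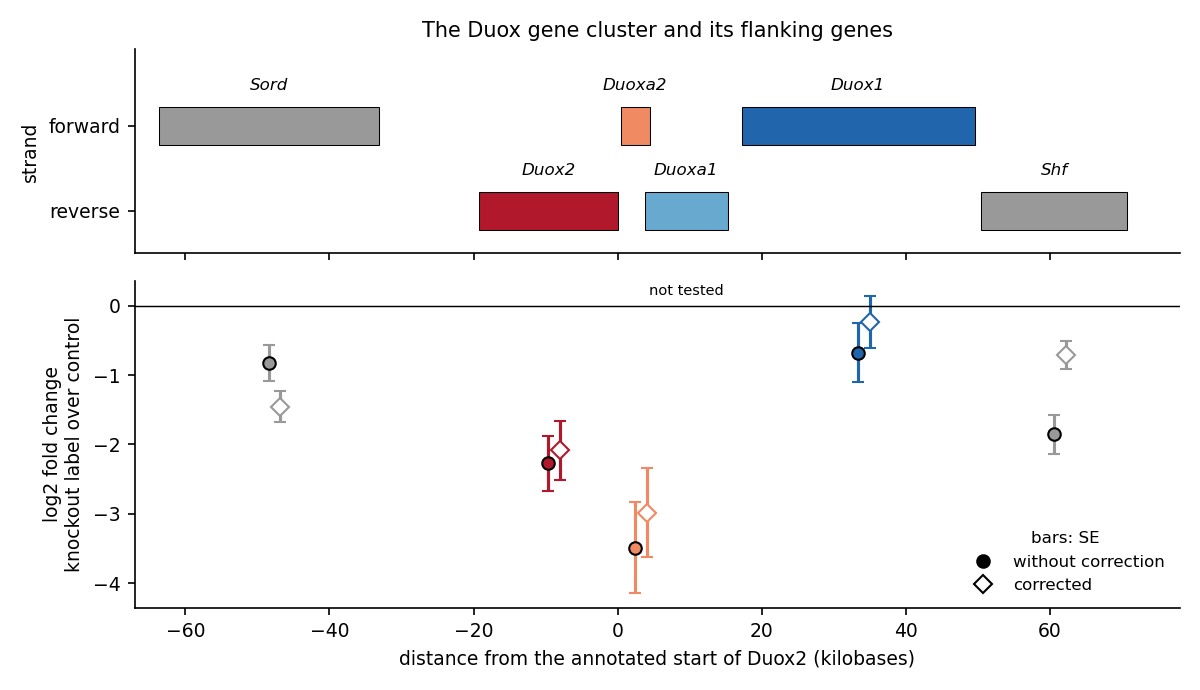
Upper panel: the Duox cluster and its flanking genes by distance in kilobases from the annotated start of Duox2, each bar a gene on its strand. Lower panel: log2 fold change of each tested gene, libraries labelled knockout over controls, with SE bars; filled circles are without and open diamonds with the correction. Duox2 and Duoxa2, at -2.27 and -3.49, have larger drops than Sord (-0.83), Duox1 (-0.68) and Shf (-1.85).

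*Nox1*, the oxidase typical of the colon, was the 1 gene of the 7 tested that passed as higher. It had 133, 154 and 98 reads in the libraries labelled knockout against 17, 15 and 35 reads in the controls, which is 3.23, 4.55 and 2.91 CPM against 0.589, 0.483 and 1.02 CPM. The groups did not overlap, with means of 3.56 ± 0.872 CPM and 0.697 ± 0.283 CPM (SD, n = 3 each). The log2 fold change of *Nox1* reached 2.34 (SE 0.41) at an adjusted p of 0.00059 by edgeR. *Nox1* transcripts have 46.3% GC, and the fitted GC and length trend alone amounted to 1.29 of this change on the log2 scale. After the correction its levels were 1.97, 2.77 and 2.05 CPM in the libraries labelled knockout and 1.03, 0.824 and 1.30 CPM in the controls, with a corrected log2 fold change of 1.09 (SE 0.33) at an adjusted p of 0.033 by edgeR. The corrected call was lost in 4 of 6 fits that left out a library: without knockout-labelled library 1 (1.20, adjusted p = 0.0682) or 2 (0.93, adjusted p = 0.117), and without control library 1 (1.07, adjusted p = 0.072) or 2 (0.94, adjusted p = 0.128). *Nox1* (chromosome X, 134086421 to 134221956, reverse strand) shares 399 exon bases in total with the overlapping genes *Cstf2*, *Xkrx* and *Arl13a*. How these bases divide among them was not recorded. *Cstf2*, a polyadenylation factor gene, was also higher (log2 fold change 1.20, adjusted p = 0.00085, edgeR, and 0.21, adjusted p = 0.469, after the correction). *Xkrx* did not pass (1.07, adjusted p = 0.115, and 0.06, adjusted p = 0.938), and *Arl13a* had no read.

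Among the catalytic subunits *Duox1*, *Duox2*, *Nox1* and *Nox4*, *Duox2* made up 91.6%, 95.9% and 95.0% of the summed level per kilobase in the libraries labelled knockout, against 99.6%, 99.5% and 99.6% in the controls. The share of *Nox1* was 7.47%, 3.65% and 4.32% in the libraries labelled knockout and 0.139%, 0.192% and 0.249% in the controls. These ranges did not overlap, where the groups did not overlap for 72.6% of all tested genes. All these shares use uncorrected levels, and the fitted GC and length trend alone gave *Nox1* 1.29 on the log2 scale. *Nox1* still reached only 1.08 ± 0.264 CPM per kilobase under the knockout label, below the 22.5 ± 12.4 CPM per kilobase of *Duox2* there (SD, n = 3 each). *Nox4* (chromosome 7, 87246096 to 87398710) had no read in any library, which allows at most 3 counts, or 0.0728 to 0.0889 CPM in the libraries labelled knockout and 0.0873 to 0.104 CPM in the controls. Intervals and floors of this kind cover counting error only.

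*Cyba* and *Noxo1*, the partners of NOX1, were far more abundant than *Nox1* itself. *Cyba* (chromosome 8, 122424776 to 122432930) encodes p22phox and stood at 35.5, 57.2 and 39.7 CPM in the libraries labelled knockout, against 182, 97.7 and 70.8 CPM in the controls, with no overlap. The edgeR test gave *Cyba* an adjusted p of 0.0043 at a log2 fold change of -1.40 (SE 0.34). With 59.3% its transcripts are the richest in GC of the 9 genes, the fitted trend amounted to -1.24, and after the correction the groups overlapped at -0.10 (SE 0.25, adjusted p = 0.797). *Noxo1* (chromosome 17, 24696234 to 24700529), the organizer subunit, had 67.9, 87.9 and 90.9 CPM in the libraries labelled knockout and 225, 144 and 102 CPM in the controls, also with no overlap. Its log2 fold change of -0.94 (SE 0.29, adjusted p = 0.0125, edgeR) became -0.04 (SE 0.23, adjusted p = 0.900) with the correction, and it was also lost without knockout-labelled library 1 (-0.81, adjusted p = 0.0502) and under total count scaling (-0.42, adjusted p = 0.142). Of the 3013 exon bases of *Noxo1*, 2122 are shared with *Tbl3*, a ribosome biogenesis gene on the opposite strand, so without a known strand setting the reads of these genes cannot be told apart. *Tbl3* itself had a log2 fold change of -1.24 (adjusted p = 0.0015) and -0.44 (adjusted p = 0.113) after the correction.

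**Figure D4:**
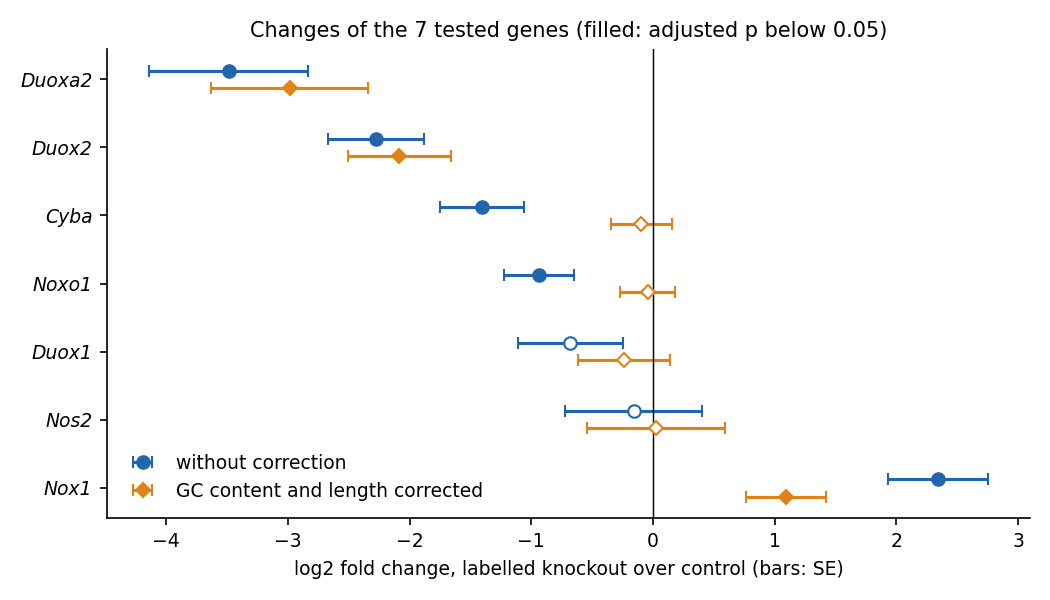
Log2 fold change of the 7 tested genes, libraries labelled knockout over controls, with SE bars; blue circles are without and orange diamonds with the GC content and length correction, and filled symbols have an adjusted p below 0.05 by edgeR's quasi-likelihood test. Duoxa2, Duox2 and Nox1 stay filled after the correction, while Cyba and Noxo1 move to -0.10 and -0.04.

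*Nos2* (chromosome 11, 78920787 to 78960254), the nitric oxide synthase, passed in no fit. It stood at 16.5, 90.6 and 39.1 CPM in the libraries labelled knockout and 79.9, 41.7 and 41.8 CPM in the controls, so the libraries labelled knockout held both its lowest and its highest value. Its log2 fold change by edgeR was -0.16 (SE 0.56, adjusted p = 0.812) and 0.03 (SE 0.57, adjusted p = 0.976) after the correction. Without knockout-labelled library 2 it was -0.97 (adjusted p = 0.0753), and without knockout-labelled library 1 it was 0.26. The sign of the uncorrected change thus turned without library 1, and it also turned under total count scaling and with the correction. Within the libraries labelled knockout, library 1 was the lowest and library 2 the highest for *Duox2*, *Duoxa2*, *Nos2*, *Cyba* and *Duox1*, and not for *Noxo1* or *Nox1*. The same was true, in genes chosen after their values were seen, of *Reg3b*, an antimicrobial lectin gene, at 484, 5088 and 1978 CPM in those libraries against 2476, 3208 and 3683 CPM in the controls, and of its relative *Reg3g* at 268, 2597 and 734 CPM against 353, 694 and 1104 CPM. Neither lectin gene passed the test, at log2 fold changes of -0.31 and 0.74, and of -0.93 and -0.67 after the correction, which turned the sign of *Reg3g*. *Gpx2* and *Noxa1* had the same order of libraries, and its share among all tested genes was not counted.

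By level per kilobase the order in the libraries labelled knockout was *Cyba* (42.5 ± 11.1), *Noxo1* (27.3 ± 4.15), *Duox2* (22.5 ± 12.4), *Duoxa2* (19.0 ± 15.2), *Nos2* (11.1 ± 8.61), *Nox1* (1.08 ± 0.264), *Duox1* (0.138 ± 0.0197) and *Duoxa1* (0.0144 ± 0.0133 CPM per kilobase, SD, n = 3), with *Nox4* at no read. In the controls it was *Duoxa2* (212 ± 110), *Cyba* (112 ± 55.8), *Duox2* (109 ± 28.8), *Noxo1* (52.2 ± 20.7), *Nos2* (12.3 ± 4.99), *Duox1* (0.221 ± 0.0977), *Nox1* (0.211 ± 0.0857) and *Duoxa1* (0.0336 ± 0.0268 CPM per kilobase, SD, n = 3). Under the knockout label the ranges of neighbours overlapped from *Noxo1* through *Duox2* and *Duoxa2* to *Nos2*. In the controls those of *Duoxa2* and *Cyba*, of *Cyba* and *Duox2*, and of *Duox1* and *Nox1* overlapped. Both orders use uncorrected levels. The fitted GC and length trend between the groups amounted to -1.24 for *Cyba* and 1.29 for *Nox1* on the log2 scale. Whether the orders hold with corrected levels was not tested.

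The remaining subunits of the phagocyte and NOX1 type oxidases are 10 genes, of which 9 were tested. Before the correction 2 were higher (*Rap1a* and *Cybb*), 1 was lower (*Noxa1*) and 6 did not pass, and the median log2 fold change was -0.19, where that of all tested genes was 0.15. *Noxa1*, the activator of NOX1, stood at 27.2, 42.6 and 39.9 CPM in the libraries labelled knockout against 101, 52.7 and 42.2 CPM in the controls, overlapping at a log2 fold change of -0.83 (adjusted p = 0.0417, edgeR) and 0.04 (adjusted p = 0.925) after the correction. Its uncorrected call was lost without knockout-labelled library 1 (-0.65), 2 (-0.95) or 3 (-0.91) and without control library 1 (-0.35), at adjusted p of 0.050 to 0.218. Total count scaling gave -0.32 (adjusted p = 0.368). *Cybb*, the phagocyte oxidase, was at 1.70, 2.22 and 0.237 CPM against 0.554, 0.258 and 0.349 CPM in the controls, overlapping at a log2 fold change of 1.84 (adjusted p = 0.0368, edgeR), which passed in only 1 of 6 fits that left out a library, the one without knockout-labelled library 3, and was 0.42 (adjusted p = 0.653) after the correction. The small GTPase gene *Rap1a* was at 25.3, 36.3 and 32.1 CPM against 8.17, 6.54 and 11.4 CPM in the controls (log2 fold change 1.84, adjusted p = 0.00036, and 0.49, adjusted p = 0.101, after the correction). After the correction none of the 9 was higher and 2 were lower, with a median of 0.04. Of all tested genes 66.9% passed before the correction and 29.9% after it. *Rac1*, the GTPase that activates NOX1, was among the lower ones (corrected log2 fold change -0.81, against 0.16, adjusted p = 0.535 by edgeR, without the correction) and is named after its value was seen.

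The genes that supply NOS2 with arginine and with its cofactor tetrahydrobiopterin are 12, of which 10 were tested. Before the correction 3 were higher, 5 lower and 2 did not pass (median log2 fold change 0.01). After it 1 was higher, 2 were lower and 7 did not pass (median -0.28, where that of all genes was -0.02). Of all tested genes 66.9% passed before the correction and 29.9% after it. *Gch1*, the entry enzyme of tetrahydrobiopterin synthesis, fell to 19.1, 30.4 and 19.95 CPM in the libraries labelled knockout, against 54.8, 45.5 and 48.8 CPM in the controls (log2 fold change -1.10, SE 0.26, adjusted p = 0.0027, edgeR, and -2.51, SE 0.26, adjusted p = 0.0012, after the correction). Its uncorrected call was lost under total count scaling (-0.62, adjusted p = 0.0533). *Spr*, which makes the last step of that synthesis, had -1.58 (adjusted p = 0.00052) and -0.44 (adjusted p = 0.0863) after the correction, and *Asl*, which returns citrulline to arginine, had -1.10 (adjusted p = 0.0020) and -0.35 (adjusted p = 0.162). *Slc7a2*, an arginine carrier, went the other way before the correction (1.74, adjusted p = 0.0017) and did not pass after it (0.35, adjusted p = 0.505). *Pts*, also of tetrahydrobiopterin synthesis, was higher in both fits, at 1.34 (adjusted p = 0.0066, edgeR) and 1.43 (adjusted p = 0.0128) after the correction. It was the 1 gene of the list that was higher after the correction, and is named after its value was seen.

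The enzymes that remove peroxide and superoxide are 14, all tested. Before the correction 2 were higher and 9 lower, and after it none was higher and 9 were lower, with median log2 fold changes of -0.89 and -0.97. Of all tested genes 66.9% passed before it (29.7% lower) and 29.9% after it (15.6% lower), with medians of 0.15 and -0.02. The 9 lower genes were not the same before and after the correction. *Gpx1* (-0.37, adjusted p = 0.161, edgeR) and *Sod2* (0.16, adjusted p = 0.424) were lost after it. *Prdx1* (-1.44, adjusted p = 0.0032) and *Prdx4* (-1.06, adjusted p = 0.0073) passed only after it. *Gpx2*, the glutathione peroxidase of the gut epithelium, was at 293, 556 and 393 CPM in the libraries labelled knockout, against 2135, 921 and 1365 CPM in the controls, with no overlap (log2 fold change -1.83, SE 0.34, adjusted p = 0.00090, edgeR, and -1.40, adjusted p = 0.0169, after the correction). *Prdx2*, a cytosolic peroxiredoxin, had -1.35 (adjusted p = 0.00078) and -1.55 (adjusted p = 0.0039), and *Prdx5*, found in mitochondria and peroxisomes, had -1.85 (adjusted p = 0.00022) and -0.88 (adjusted p = 0.0092). *Gpx4*, which reduces lipid peroxides, had -1.68 (adjusted p = 0.00025) and -0.48 (adjusted p = 0.0435). Of 5 haem peroxidase genes, which use peroxide, 1 was tested and did not pass, and *Mpo* had no read in any library.

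Receptors and adaptors that sense microbes are 16 genes, 14 of them tested. Before the correction 6 were higher and 3 lower, and after it 3 were higher and 2 lower, with medians of 0.46 and 0.32. Of all tested genes 66.9% passed before the correction and 29.9% after it. *Traf6*, a ubiquitin ligase of Toll-like receptor signalling, had 1.97 (adjusted p = 0.00027, edgeR) and 0.61 (adjusted p = 0.0422) after the correction. *Ticam1*, the adaptor of TLR3 and TLR4, had -1.63 (adjusted p = 0.00039) and -1.01 (adjusted p = 0.0064). *Tlr3* (1.87, and 0.55 after the correction) and the NF-κB subunit gene *Rela* (-1.23, and -0.06 after the correction) passed only without it. Genes of the response to IL-17 and IL-22, cytokines known to induce epithelial defence, are 16, of which 13 were tested. Before the correction 2 were higher and 4 lower, and after it 1 was higher and 1 lower, with medians of -0.31 and -0.30. The same shares of all tested genes apply to these counts. *Nfkbiz*, a nuclear cofactor of NF-κB, was at 64.5, 89.6 and 54.2 CPM in the libraries labelled knockout against 8.52, 10.9 and 13.4 CPM in the controls (log2 fold change 2.67, SE 0.29, adjusted p = 0.00019, and 1.61, adjusted p = 0.0016, after the correction). *Il17rc*, a subunit of the IL-17 receptor (-1.61, and -0.30 after the correction), the STAT3 feedback inhibitor gene *Socs3* (-1.39, and 0.05) and the fucosyltransferase gene *Fut2* (-1.57, and -1.06) passed only without it. The calls of *Socs3* (-0.91, adjusted p = 0.0515) and *Fut2* (-1.12, adjusted p = 0.0681) were also lost under total count scaling.

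By likeness of pattern, the mean absolute difference of centred log2 CPM over the 6 libraries among 11120 genes, the genes nearest *Duox2* were *Rps19-ps7* (0.115), *Rnf208* (0.190), *Foxo6* (0.233), *Susd2* (0.238) and *Lgals3* (0.240), where 0 is an identical pattern. *Duoxa2* was nearest to *Foxo6* (0.475), *Sprr2a3* (0.606), *Rpl28-ps1* (0.607), *Duox2* (0.617) and *Rps27rt* (0.696). *Duox2* was thus the fourth nearest gene to *Duoxa2*, while *Duoxa2* ranked 948 by nearness to *Duox2*. These distances are a description and share the libraries' GC trends and depth. They were computed from uncorrected levels. Genes that are near-identical copies of others, as ribosomal protein pseudogenes can be, are uncertain, since how reads with several matches were counted is not stated.

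The labelled tissue was checked against its markers. For the counts below, 37.2% of all tested genes were higher and 29.7% lower before the correction. After it 14.3% were higher and 15.6% lower. All 10 epithelial markers were tested, 2 higher and 5 lower, with summed levels of 12874 to 16067 CPM in the libraries labelled knockout against 23141 to 26774 CPM in the controls. The sum of 12 phagocyte markers was 35.7 to 115 CPM against 30.5 to 44.4 CPM in the controls, with 5 of 8 tested higher and none lower before the correction, 1 higher after it, and *Ly6g* and *Mpo* at 0. *Ptprc*, a pan-leukocyte gene, set most of that sum in knockout-labelled libraries 1 and 2, at 55.5, 74.4 and 7.71 CPM against 8.21, 12.2 and 8.67 CPM in the controls. The macrophage genes *Lyz2* (16.6, 10.6 and 8.54 CPM against 1.73, 5.67 and 5.41 CPM) and *Adgre1* (0.849, 1.12 and 0.385 CPM against 0.0346, 0.0644 and 0.0873 CPM) were above every control in all 3 libraries labelled knockout. After the correction *Lyz2* overlapped and did not pass (0.53, adjusted p = 0.331, edgeR), and *Adgre1* was the 1 that passed (2.59, adjusted p = 0.0116). *Itgam* was also above every control before the correction, and overlapped after it. *Cd68* of the same list lay below every control (2.81, 3.55 and 3.20 CPM against 3.64, 4.73 and 3.75 CPM) and did not pass. *Csf1r* and *Cd14* overlapped between the groups and did not pass. The sum of 8 T lymphocyte markers was 375 to 2362 CPM against 353 to 1038 CPM with none called, and that of 11 mesenchyme and endothelium markers was 10.2 to 16.0 CPM against 8.31 to 11.3 CPM, with 2 of 7 tested higher and 1 lower. Of 32 tested genes that mark position along the gut or the villus, 22 passed without the correction (68.8%) and 12 with it (37.5%), where 66.9% and 29.9% of all tested genes did, so the uncorrected share is close to that background. The sum of 9 villus tip genes was 5345 to 6354 CPM against 13960 to 17402 CPM in the controls (3 higher, 4 lower). It was carried by the apolipoprotein gene *Apoa4*, and without it the sums overlapped, at 1444 to 2326 CPM against 1847 to 2418 CPM. The sum of 8 crypt genes was 1397 to 1654 CPM against 440 to 596 CPM (3 higher, 1 lower), and 447 to 531 CPM against 305 to 402 CPM without *Olfm4*, its most abundant gene. The sum of 7 ileal genes was 1600 to 2909 CPM against 2580 to 3983 CPM (2 higher, 4 lower), and that of 8 duodenal and jejunal genes 3578 to 4019 CPM against 5521 to 6770 CPM (2 higher, 3 lower). After the correction 3 villus tip genes, 2 ileal genes and 4 duodenal and jejunal genes passed as lower and none as higher, 3 crypt genes passed as higher and none as lower, and of the epithelial markers 2 passed as higher and 1 as lower. In bulk RNA, fewer cells of a type and less RNA per cell cannot be told apart. The part of these shifts in the lower *Duox2* and *Duoxa2* was not tested.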

How the data were processed

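RNA of 6 libraries, 3 labelled knockout and 3 littermate controls, was sequenced. Raw counts of reads for each gene were deposited by the authors, made with cutadapt 1.18, STAR 2.6.1c and Subread 1.6.1 on GRCm38, per the submitters' processing notes; the strand setting and annotation release are not given in the sources used here. Of 55298 identifiers, 55117 matched GENCODE M21 without the version suffix. Counts were tested with edgeR 4.0.16 (R 4.3.3) on 15143 genes after filterByExpr (minimum count 10, minimum total 15), with TMM scaling, the robust quasi-likelihood test and Benjamini-Hochberg adjustment over all tested genes; SE is the log2 fold change over the square root of F. The median tested gene had 444 reads per library. The correction fitted, within each library, natural splines of transcript GC content (6 df) and log2 length (5 df; medians over transcripts, prior count 2) and used the fit as an offset for the 15135 genes with GC values. It was run on simulated data with no trend or with the trend of the same fitted splines, and changed genes were picked at random. That run cannot show how the correction treats true differences that follow GC content or length. Levels between genes are CPM per kilobase of merged exon. Replicate numbers follow accession order and pair nothing. Every pair of libraries within a group differed beyond sampling noise.

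The members and lists were chosen with earlier results of these data known. The genes named are the 9 members, *Epas1*, the neighbours of the *Duox* cluster and genes overlapping members, at most 4 genes per list past the threshold by smallest p without correction, and the 5 genes nearest to *Duox2* and *Duoxa2* in pattern among genes of at least 2 CPM. *Rac1*, *Reg3b*, *Reg3g*, *Pts*, *Gpx1*, *Sod2*, *Prdx1* and *Prdx4* fall outside this rule and were chosen after their values were seen. Single marker and position genes are also named outside it. Alternatives were other scalings, limma 3.58.1 voom, DESeq2 1.42.0, filters, transcript models and leaving out each library. Some genes of the lists are not reported here by name.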

Additional observations from a re-analysis of the deposited data

How the results depend on the processing

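The number of genes called without correction was 5, and 4 to 5 when each library was left out in turn; it was 3 with the GC content and length correction. The number called after correction was 3, and 1 to 3 when each library was left out, with 1 (*Duox2*) without knockout-labelled library 1; it was 1 at an adjusted p below 0.01. *Duox2* and *Duoxa2* kept their direction and call without correction under all scalings, filters and tools run. Of 201 alternative values of the members, 15 turned their sign, and 0 of these had passed the threshold before or after. After correction *Cyba* was 0.25 with the longest transcript and -0.32 to 0.19 over the left-out libraries, *Duox1* 0.093 with GC content alone and -0.47 to 0.060, *Nos2* -0.053 with no filter and -0.795 to 0.44, and *Noxo1* -0.22 to 0.22. Without correction, *Nos2* was 0.34 under total count scaling, 0.027 with the correction and -0.97 to 0.26 over the left-out libraries. *Noxa1* became 0.040 and *Socs3* 0.049 with the correction. The cause was not tested. The median log2 fold change of all genes was 0.15 with TMM, 0.01 with DESeq2 size factors and 0.61 with total counts. No paired analysis was possible because the replicate numbers come from accession order. The low counts of *Duox1*, *Duoxa1* and *Nox4* limit what can be said of them.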
